A study of Saccharomyces cerevisiae with 12 samples.

Results

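The interaction of 14-3-3 mutations and histone deacetylase deletions was measured in budding yeast (Saccharomyces cerevisiae) on all 12 arrays of the series, across 5448 genes. The interaction of a gene is the mean log2 signal of the combined mutant, minus that of the 14-3-3 mutant, minus that of the deacetylase mutant, plus that of the wild type. It is 0 when the changes in the separate mutants add up on the log2 scale, and this sum is called the additive expectation. All arrays and all genes with a name entered the fit. The design asks how lowered 14-3-3 function and missing deacetylases act together on genes that glucose represses.

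Each of the 4 strains was grown as triplicate cultures and put on 3 Affymetrix yeast arrays. The wild type was W303-1A. The bmh mutant, YLL1087, had the genotype bmh1-170ts bmh2∆: a temperature-sensitive allele of one 14-3-3 gene and a deletion of the other. The hdac mutant was hda1∆ rpd3∆, and the combined mutant was bmh1-170ts bmh2∆ hda1∆ rpd3∆. The labels give W303-1A as the genetic background of every strain. All cultures grew exponentially in YP medium with 5% glucose at 30 °C to an optical density between 0.7 and 1.3, so the temperature-sensitive allele was read at the growth temperature given and no shift to another temperature is described. Different label fields give the strain names CTY-TY44 and KBY3 to the hdac and combined arrays in opposite order. Groups here follow the genotype labels. As each genotype is 1 strain, any other difference between strains is part of the comparison.

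The 14-3-3 proteins bind phosphorylated partner proteins and keep them in, or out of, an active state. Rpd3 and Hda1 are the catalytic subunits of separate complexes that remove acetyl groups from histones, and both complexes are recruited by DNA-bound repressors. Adr1 is an activator of genes for the use of ethanol, fatty acids and glycerol. Glucose keeps Adr1 inactive, and 14-3-3 proteins are known to bind a phosphorylated region of it. ADH2, the alcohol dehydrogenase that consumes ethanol, is its best known target.

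The deleted genes followed the genotype labels. BMH2 lay between 11.47 and 11.81 on the wild-type and hdac arrays and between 3.77 and 4.13 on the bmh and combined arrays, at least 182-fold lower. HDA1 and RPD3 lay between 3.68 and 4.10 on the hdac and combined arrays, at least 17-fold and at least 44.6-fold lower than in the wild type. The highest of these values of deleted genes, 4.13, serves as the background level below. BMH1, mutated but not deleted, lay between 12.65 and 12.98 on every array, so its level checks no label. None of the 4 mutated genes had a called interaction (BMH1 −0.13, BMH2 −0.24, HDA1 −0.09, RPD3 −0.09). BMH2, HDA1 and RPD3 are at background where deleted, so these values rest on levels at the floor, and without wild-type array 1 BMH2 stood at −0.32 with an adjusted p of 0.020 (limma). The median SD over genes was 0.135 among the wild-type arrays and 0.0654 to 0.0681 in the mutants. Wild-type array 1 differed most from its replicates.

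An interaction was called for a gene at an adjusted p under 0.05 (limma, Benjamini-Hochberg adjustment over the 5448 genes). Of the 5448 genes, 1289 (23.7%) were called, 671 (12.3%) positive and 618 (11.3%) negative. An interaction of at least 1 on the log2 scale was called for 219 genes (4.02%). For 944 genes the sign and the call were kept when any 1 array was left out. The changes against the wild type were called for 1742 genes (32%) for bmh, 3892 (71.4%) for hdac and 4122 (75.7%) for the combined mutant.

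Before these genes are sorted, a chromosome and a cell type have to be set apart, because the hdac arrays differed from all others in both. Chromosome III is the chromosome of the mating-type locus and of the silent copies beside it. Of its 148 genes (chromosomes from the RefSeq R64 gene table), 125 (84.5%) had a called interaction, 120 negative and 5 positive. The median interaction on chromosome III was −0.85, while the medians of the other chromosomes lay between −0.06 and 0.02, with 16.7% to 25.7% of genes called. The median change of chromosome III genes was 0.69 for hdac, −0.03 for bmh and −0.12 for the combined mutant. Array by array, the chromosome III median stood 0.67, 0.70 and 0.69 above the wild-type mean on the hdac arrays and between −0.12 and 0.03 on the other 9 arrays. The combined arrays, which lack the same deacetylases, did not share this shift. Copy number was not measured, and its part in these interactions was not tested.

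**Figure D1:**
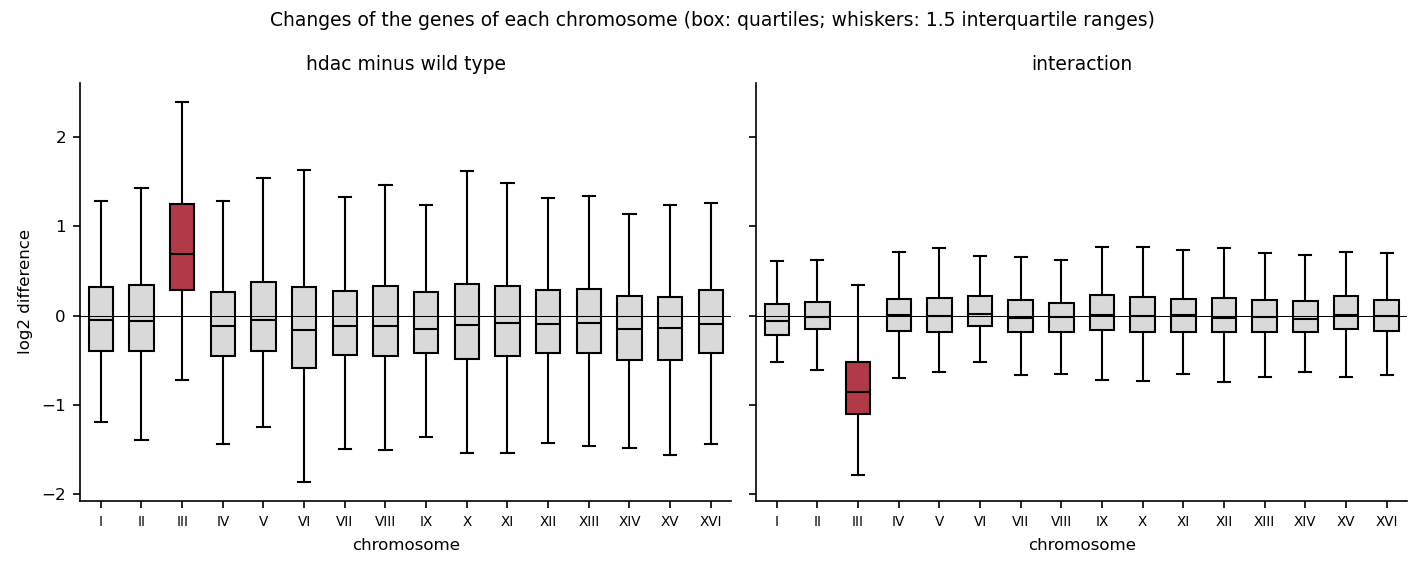
Boxes show the log2 change of the hdac mutant from the wild type (left) and the log2 interaction (right) for the genes of each chromosome, with the median, the quartiles and whiskers of up to 1.5 interquartile ranges. Chromosome III (red) has a median change of 0.69 and a median interaction of −0.85, and the other chromosomes have median interactions between −0.06 and 0.02.

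The hdac arrays also showed the transcripts of the other mating type. Yeast haploids are a or alpha cells; a cells make a-factor and the alpha-factor receptor, and alpha cells the reverse. MF(ALPHA)1, an alpha-factor gene, measured 11.64, 11.67 and 11.61 on the hdac arrays and between 3.70 and 4.25 on the other 9. It was thus at background in the wild type, bmh and combined groups and at least 177-fold higher in the hdac mutant, with an interaction of −7.90 ± 0.11 (± SE; adjusted p = 1.5e-13). HMLALPHA1, the probe set that also reads the alpha regulator at the mating-type locus, had an interaction of −6.65 and was at least 81.3-fold higher in the hdac mutant than in any other group. STE2, the alpha-factor receptor of a cells, measured 5.85, 6.13 and 6.01 on the hdac arrays, 10.88, 10.88 and 10.89 on the combined arrays and between 12.61 and 12.84 on the wild-type and bmh arrays. Its interaction was 5.00 ± 0.11, and the hdac arrays did not overlap any others. HMRA1, which reads the a1 regulator, was at background on the hdac arrays alone, at least 11.5-fold below the other groups, and its interaction was 4.12.

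All 7 a-specific genes had positive interactions (MFA2 5.63, STE2 5.00, AGA2 4.03, BAR1 2.74, MFA1 2.35, STE6 2.05, ASG7 1.81). All 5 alpha-specific genes had negative ones (MF(ALPHA)1 −7.90, AFB1 −5.16, STE3 −4.93, MF(ALPHA)2 −3.27, SAG1 −0.55), and HMRA2 stood at −2.78. Between the bmh and combined strains, 75% of all genes changed, 30.1% higher and 45% lower in the latter, and 6 of the 7 a-specific genes were lower. BAR1, the protease that degrades alpha-factor, fell by 3.27 on the log2 scale (adjusted p = 3.7e-11), whereas AGA2, an agglutinin subunit, differed by −0.12 (adjusted p = 0.17). SAG1, the alpha agglutinin, measured 9.43, 9.47 and 9.69 on the combined arrays and between 7.77 and 8.12 on wild-type arrays. Of 26 pheromone response genes, 7 were positive and 3 negative, 38.5% called against 23.7% of all genes. Mating type, the chromosome III level and the genotype with only the deacetylases missing fall on the same 3 arrays, so their shares in an interaction cannot be told apart. In cultures measured in bulk, a change in the cells present and a change in RNA per cell cannot be told apart either. The 51 mating, marker and mutated genes were therefore kept out of the classes below, and each class is counted also without chromosome III.

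**Figure D2:**
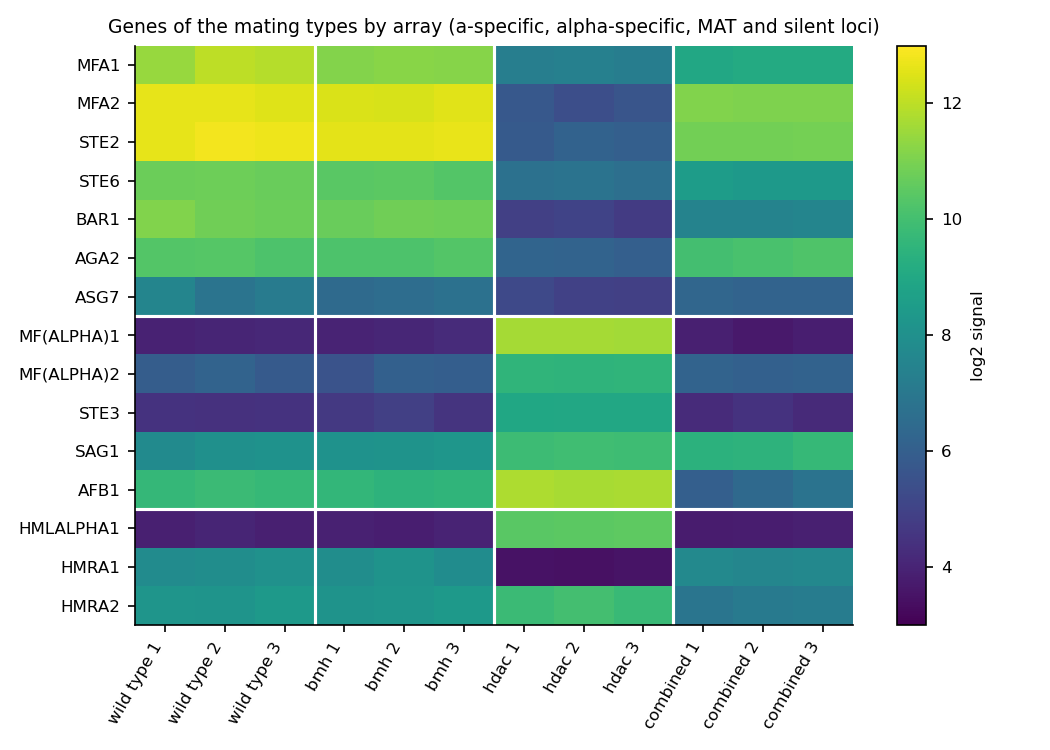
Log2 signal (colour) of 7 a-specific genes, 5 alpha-specific genes and 3 probe sets of the mating-type and silent loci on each of the 12 arrays. The hdac arrays show low a-specific and high alpha-specific signals, and the combined arrays resemble the wild type and bmh arrays in MF(ALPHA)1, STE3 and HMLALPHA1.

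The remaining 5397 genes held 1259 called interactions, 655 positive and 604 negative, and without chromosome III there were 1140 among 5256 genes (21.7%). Opposing genes changed in opposite directions in the separate mutants. Synergy means that the combined mutant went beyond the additive expectation in the direction of its own called change, with no separate change called the other way. Saturation means that both separate changes went the same way and the combined change fell short of their sum. Attenuation means that a single mutant alone had a called change and the interaction ran against it. By these rules 361 genes showed synergy (200 positive and 161 negative), 318 saturation (148 and 170), 371 attenuation (176 and 195) and 189 opposing changes (119 and 70), and 20 fitted none of these. Without chromosome III the counts were 344, 300, 301 and 175. The wild-type mean enters both separate changes with a minus and the interaction with a plus, so an error in it moves a gene toward or away from saturation. Without wild-type array 1 every class was larger, with 482 synergy, 643 saturation, 510 attenuation and 273 opposing genes, and the reason was not tested.

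**Figure D3:**
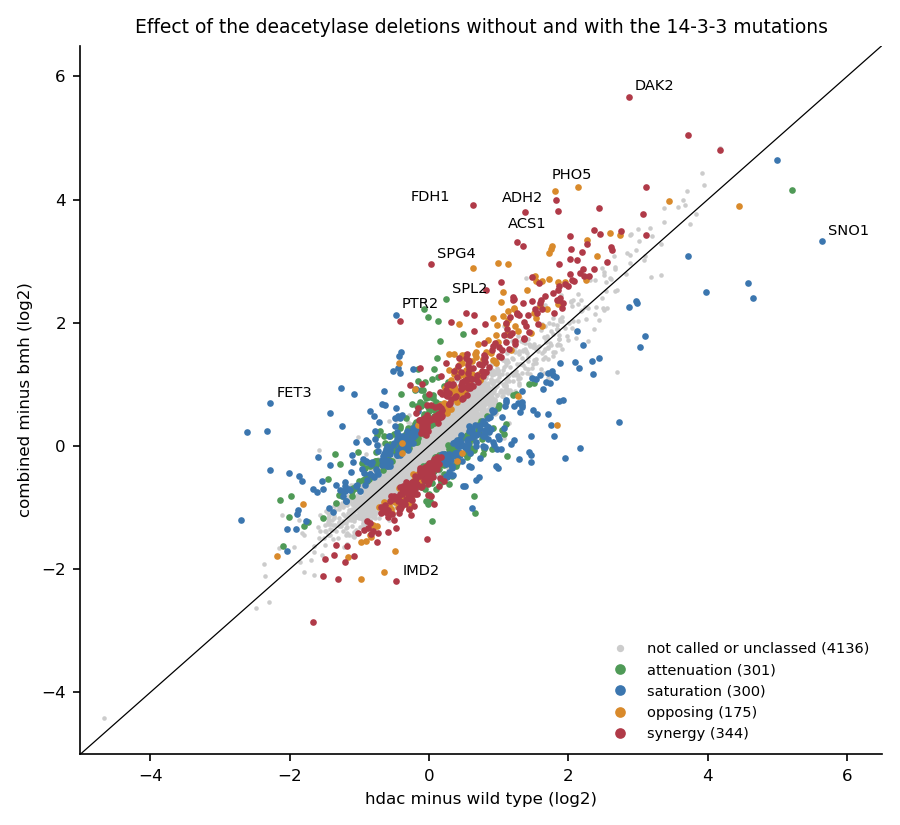
Each point is a gene outside chromosome III and outside the mating, marker and mutated genes, with the log2 effect of the deacetylase deletions without the 14-3-3 mutations on the x axis and with them on the y axis. Points off the diagonal line have an interaction, colours give the class with its number of genes, and DAK2, FDH1 and ADH2 lie above the line while SNO1 lies below it.

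The 2 axes of that plot rest on separate arrays. Over the 5256 genes the deacetylase effects in the 2 backgrounds had a Pearson r of 0.881 across genes, which are not independent replicates. For the 14-3-3 effect, without and with the deacetylases, r was 0.460. The spread (SD over genes) of the deacetylase effect was 0.766 and 0.846, and that of the 14-3-3 effect 0.398 and 0.374. The deacetylase effect was called with opposite signs in the 2 backgrounds for 131 genes, 93 without chromosome III. Between the hdac and combined strains 36.4% of all genes changed, chromosome III and mating genes included. The 14-3-3 effect was called with opposite signs for 142 genes, 126 without chromosome III. Both r values use the hdac arrays, so whatever goes with their mating type and chromosome III level is part of each.

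The strongest positive synergy was that of FDH1, formate dehydrogenase. It measured 4.95, 4.60 and 4.65 on wild-type arrays, 5.19, 4.97 and 5.16 on bmh arrays, 5.53, 5.49 and 5.09 on hdac arrays and 9.06, 8.91 and 9.09 on combined arrays. The single mutants lay within 1 log2 unit of the wild type, and no combined array overlapped any other. Its interaction was 3.28 ± 0.17 (adjusted p = 9.5e-08), which placed the combined mutant 9.69-fold above the additive expectation. DAK2, a dihydroxyacetone kinase, measured 4.97, 5.02 and 4.90, then 6.13, 6.42 and 6.21 on bmh arrays, 7.89, 7.84 and 7.75 on hdac arrays and 11.92, 11.90 and 11.95 on combined arrays. Here each genotype stood apart from the next, both single mutants were higher than the wild type, and the combined level exceeded their sum by 2.81 ± 0.11 (adjusted p = 4.4e-09).

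ADH2 rose in all 3 mutants and most in the combined one. It measured 7.83, 7.03 and 7.31 on wild-type arrays, 10.25, 9.72 and 9.86 on bmh arrays, 9.25, 9.24 and 9.14 on hdac arrays and 13.93, 13.92 and 13.96 on combined arrays. The 4 groups did not overlap, and the interaction was 2.17 ± 0.24 (adjusted p = 4.8e-05), 4.50-fold above additive. Its combined level lies within 1 log2 unit of the highest value on the arrays, 14.87, and it was the 1 synergy gene this close to the top. ACS1, the acetyl-CoA synthetase used on non-fermented carbon, showed no called change in the bmh mutant (0.09) and a rise of 1.85 in the hdac mutant. Its combined arrays measured 12.33, 12.26 and 12.30, against 10.28, 10.26 and 10.20 on hdac arrays and 8.28 to 8.55 on the other 6 arrays, an interaction of 1.96 ± 0.09. The other genes in the 8 strongest positive synergies were SPG4 (2.92), a stationary phase survival gene, CTA1 (2.44), peroxisomal catalase, TMA10 (2.41), a ribosome-associated protein, and RTN2 (2.04), a reticulon of the endoplasmic reticulum.

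**Figure D4:**
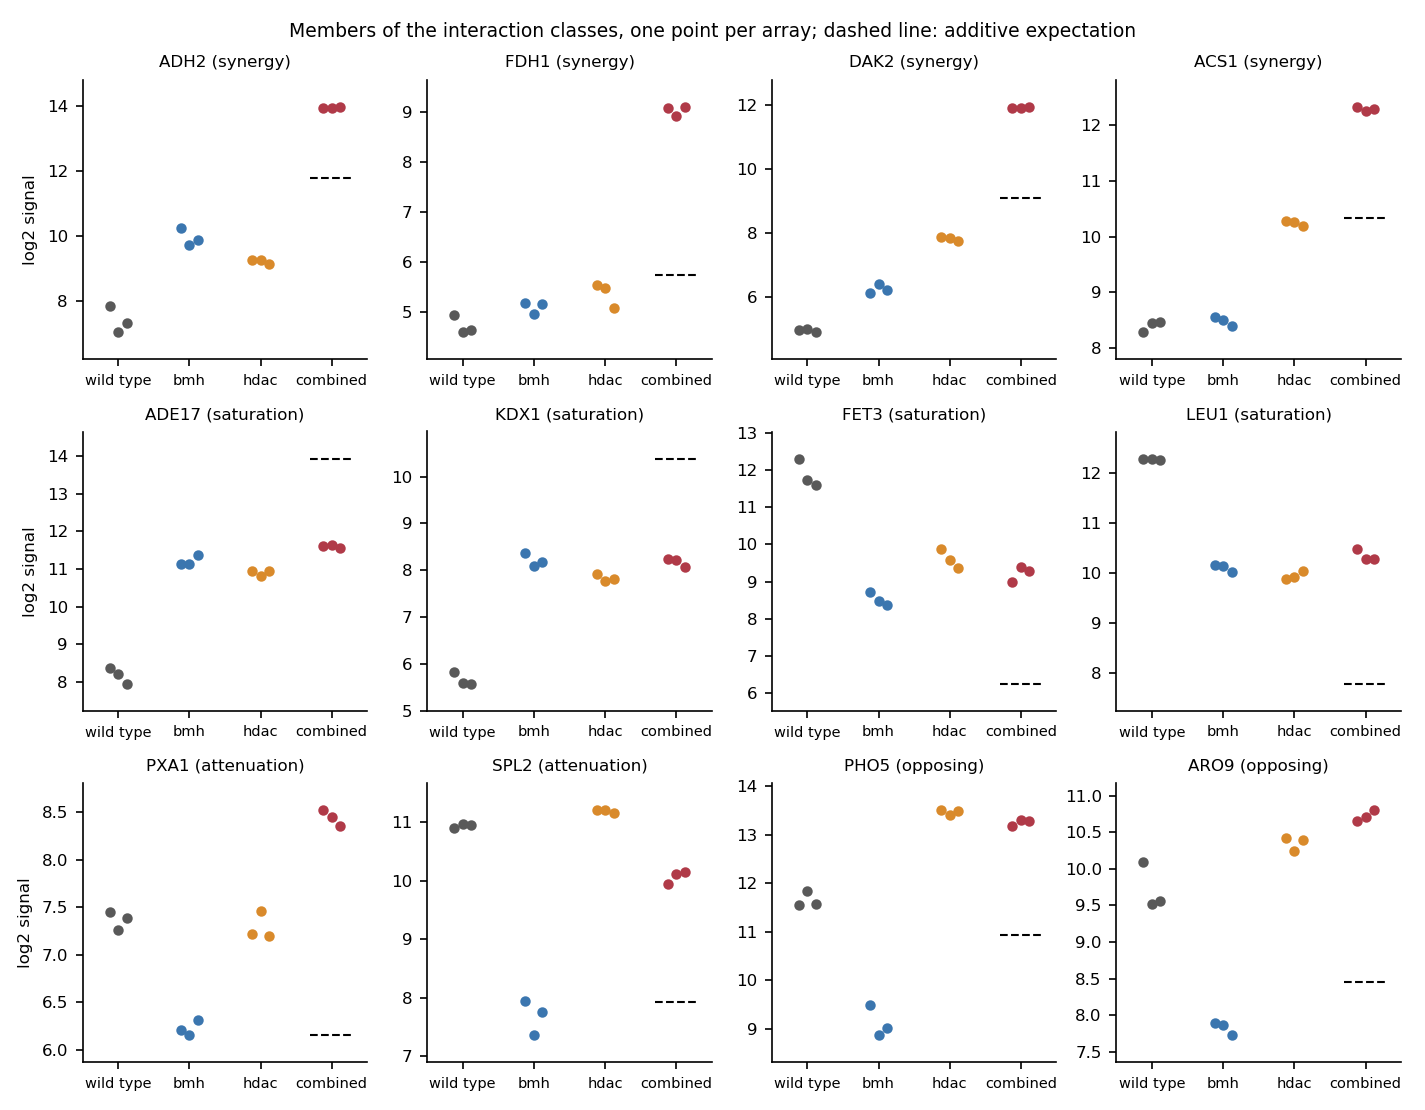
Log2 signals of 12 genes, 1 point per array in the order wild type, bmh, hdac and combined, with a dashed line at the additive expectation of the combined mutant. The combined arrays lie above the line for the synergy genes ADH2, FDH1, DAK2 and ACS1 and for FET3, LEU1, PXA1, SPL2, PHO5 and ARO9, and below it for ADE17 and KDX1.

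Of the 200 positive and 161 negative synergies together, 43 had both single changes called, 216 had 1 and 102 had none. In the last group a combined change appeared where neither mutant passed the test alone, as for CTA1, whose combined arrays read 8.48, 8.40 and 8.57 against 5.88 to 6.91 on all others. CTA1 stood at 5.88 on wild-type array 1 and at 6.91 and 6.89 on the other wild-type arrays, and without array 1 its interaction was 2.78. Linear signals gave the same sign for all 200 positive synergies and for all but 2 of the negative ones. For the positive ones the class rule nearly fixes this, so it is no separate check. Where neither separate change is a fall, a positive log2 interaction is positive on linear signals too.

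Negative synergy, a combined level lower than additive, was led by IMD2, an IMP dehydrogenase of guanine nucleotide synthesis. It measured 9.94, 10.12 and 10.02 on wild-type arrays, 8.82, 8.78 and 8.67 on bmh arrays, 9.46, 9.57 and 9.63 on hdac arrays and 6.51, 6.74 and 6.46 on combined arrays. All 4 groups were separate, and the interaction was −1.72 ± 0.12 (adjusted p = 9.7e-07), 3.28-fold below additive. COS2, a subtelomeric membrane protein gene, measured 10.11, 10.39 and 10.35 on the combined arrays against 11.54 to 12.09 on the other 9, an interaction of −1.48 ± 0.18. COS8 (−1.46, attenuation) belongs to the same family of near-identical genes, whose probe sets cannot be assigned to 1 copy with certainty. Among the 8 strongest were MAK32 (−1.31), RSA4 (−1.19), BIK1 (−1.18), SGF29 (−1.15) and RRP43 (−1.11), all 5 on chromosome III, and YIR042C (−1.20), which is not. Outside chromosome III the next genes, named after their values were seen, were COS7 (−0.86), NAS2 (−0.86), a proteasome assembly factor, BNA4 (−0.86), an enzyme of NAD synthesis from tryptophan, FLX1 (−0.85), a mitochondrial flavin carrier, and DSE4 (−0.82), a daughter cell glucanase.

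The Adr1-dependent genes were positive as a group. Of 20 genes in the list 16 had a positive and 0 a negative interaction, beside 12.3% and 11.3% of all genes, and their median interaction was 0.99 against −0.02 over all genes. In each of the 12 fits with 1 array left out the counts were again 16 and 0. The list was chosen with earlier results of these data known, so these shares describe it and test nothing. Relative to the wild type, 7 rose and 4 fell with the bmh mutations (all genes 14.8% and 17.2%), 15 rose and 1 fell with the hdac deletions (29.8% and 41.6%), and 19 rose and 0 fell in the combined mutant (30.4% and 45.2%). By class, 12 were synergies, ATO3 was a saturation, PXA1 an attenuation, and FOX2 and GUT1 were opposing.

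**Figure D5:**
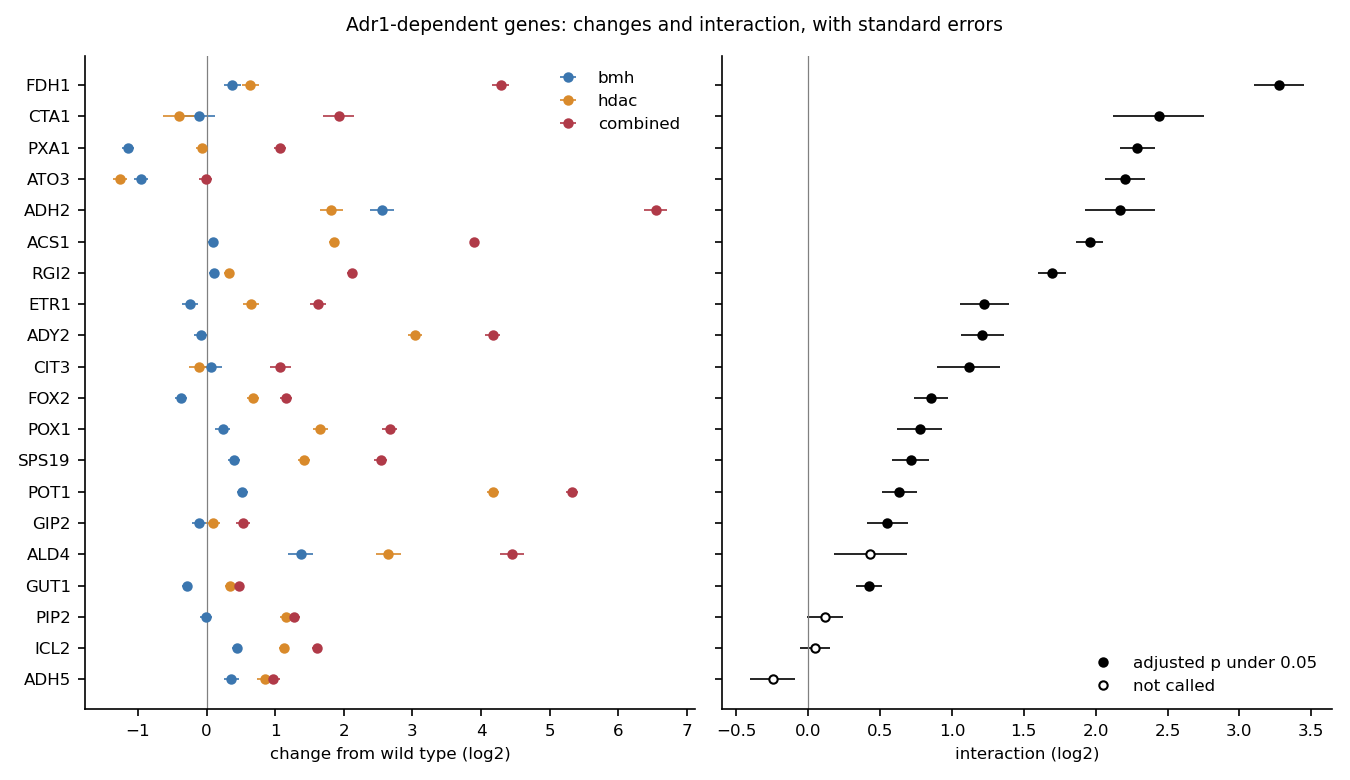
Left: log2 change from the wild type in the bmh, hdac and combined mutants for the 20 Adr1-dependent genes; right: their log2 interaction; bars are standard errors of the fit, n = 3 arrays per strain. Interactions run from 3.28 (FDH1) to −0.25 (ADH5), and open points mark ALD4, PIP2, ICL2 and ADH5, which were not called.

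Members of the list reached a positive interaction by different routes. PXA1, a subunit of the peroxisomal fatty acid importer, measured 6.20, 6.15 and 6.32 on bmh arrays against 7.45, 7.26 and 7.38 on wild-type arrays, and 7.22, 7.46 and 7.19 on hdac arrays. Its combined arrays measured 8.52, 8.45 and 8.35, above every other array. The bmh effect was thus −1.14 with the deacetylases and the reverse, 1.15, without them, an interaction of 2.29 ± 0.12. ATO3, a plasma membrane transporter of the acetate and ammonium family, fell in both single mutants (−0.95 and −1.27) and stood at −0.01 in the combined mutant. ADY2, the acetate transporter, had an interaction of 1.21 although it lies on chromosome III. RGI2 (1.69) and POX1 (0.78), the acyl-CoA oxidase, had wild-type means at background, and their combined levels were at least 4.06-fold and at least 6.15-fold above it.

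The other called members were ETR1 (1.23), CIT3 (1.12), a mitochondrial citrate synthase, FOX2 (0.86) and SPS19 (0.71) of fatty acid oxidation, POT1 (0.63), the thiolase, GIP2 (0.55), a phosphatase subunit, and GUT1 (0.42), glycerol kinase. Those not called were ALD4 (0.43, adjusted p = 0.25), PIP2 (0.12), ICL2 (0.05) and ADH5 (−0.25). ALD4, mitochondrial acetaldehyde dehydrogenase, rose by 4.45 in the combined mutant, and its wild-type arrays read 9.25, 8.39 and 8.43. Its 95% interval for the interaction ran from −0.12 to 0.98.

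Other lists of carbon use, some of which share genes with the Adr1 list, differed among themselves. Calls covered 78.6% of beta-oxidation genes and 77.8% of carnitine and monocarboxylate transport genes. They covered 55.6% of sucrose and maltose genes and 70% of gluconeogenesis genes, against 23.7% of all genes. Of 14 beta-oxidation genes 11 were positive and 0 negative (median 0.74), among them FAA2 (1.48), an acyl-CoA synthetase, and ECI1 (1.16), an isomerase. The range over left-out arrays was 10 to 13. Of 9 carnitine and monocarboxylate transport genes 6 were positive and 1, CRC1 (−0.64), was negative; JEN1 (0.86), the lactate transporter, and CAT2 (0.69), carnitine acetyltransferase, were positive. Sucrose and maltose genes had 5 of 9 positive and 0 negative, with MAL32 (0.90), a maltase, and SUC2 (0.55), invertase, and a median of 0.52. Hexose transporters had 6 of 19 positive and 0 negative (31.6% called against 23.7% of all genes) and a median of 0.09. HXT2 (1.71), HXT4 (1.55) and HXT7 (1.07) were among them, and 5 to 9 were positive over left-out arrays. HXT7 and MAL32 have near-identical copies. In gluconeogenesis 4 of 10 were positive and 3 negative (median 0.10): PCK1 (0.87) and FBP1 (0.63), its defining enzymes, were synergies, whereas MDH2 (−0.79) and CIT2 (−2.67, on chromosome III) were saturations. The positive count there fell to 2 without wild-type array 3, bmh array 1, hdac array 2 or 3, or any 1 combined array.

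Regulators of the glucose response went both ways. Of 27 such genes 5 were positive and 3 negative (29.6% called against 23.7% of all genes, median 0.09). The median ranged from 0.03 without wild-type array 2 to 0.12 without wild-type array 1. MIG1, the zinc finger repressor, fell by 2.13 in the hdac mutant and by 1.01 in the combined mutant, an interaction of 1.26. MIG3 (1.57) and NRG2 (1.22), repressors as well, also fell less in the combined than in the hdac mutant. REG2 (0.99), a phosphatase subunit, and CAT8 (0.47), an activator of gluconeogenesis, were positive. TUP1, the corepressor, had −0.85 and lies on chromosome III; TOS3, a kinase of Snf1, had −0.88 and NRG1 −0.47.

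Saturation was the commonest class among genes of amino acid and purine synthesis. ARG1, argininosuccinate synthetase, measured 10.48, 10.12 and 10.29 on wild-type arrays, 12.62, 12.84 and 12.69 on bmh arrays, 12.28, 12.21 and 12.24 on hdac arrays and 12.49, 12.55 and 12.52 on combined arrays. All mutant arrays lay above all wild-type arrays, and the combined arrays lay between those of the single mutants. The interaction was −2.14 ± 0.12 (adjusted p = 1.5e-07), so the combined mutant stood 4.42-fold below additive. ADE17, a purine synthesis enzyme, measured 8.37, 8.22 and 7.95 on wild-type arrays, 11.12, 11.12 and 11.37 on bmh arrays, 10.94, 10.82 and 10.95 on hdac arrays and 11.61, 11.63 and 11.55 on combined arrays. All mutants were above the wild type, the combined mutant highest, with an interaction of −2.33 ± 0.14. KDX1, a kinase-like protein of the cell wall pathway, rose by 2.56 for bmh, 2.17 for hdac and 2.52 for the combined mutant, an interaction of −2.21 ± 0.13.

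Of 29 Gcn4 amino acid synthesis genes 16 were negative and 5 positive (median −0.30), and 14 of the 21 were saturations. The share called was 72.4%, against 23.7% of all genes. Without chromosome III, which holds HIS4 (−2.64) and ILV6 (−1.25), 14 were negative and 5 positive. The 5 positive genes were LEU1 (2.57), BAT1 (1.12), ILV2 (0.63), ILV3 (0.40) and LEU4 (0.29), named after their values were seen. They are enzymes of branched-chain amino acids, as is the subunit encoded by ILV6, which was negative. LEU1, isopropylmalate isomerase, measured 12.29, 12.27 and 12.26 on wild-type arrays, 10.17, 10.13 and 10.02 on bmh arrays, 9.89, 9.93 and 10.04 on hdac arrays and 10.49, 10.27 and 10.29 on combined arrays. Every mutant array was below every wild-type array, and the combined arrays were the highest of the mutants. BAT2 (1.92), a branched-chain aminotransferase, and BAP2 (1.41), a permease for these amino acids, were positive too. LEU2, a strain marker of the same pathway on chromosome III, changed by 0.76, −1.85 and 1.77 in the bmh, hdac and combined mutants, an interaction of 2.85 ± 0.15. Its part in the results for these genes was not tested.

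Of 17 purine and one-carbon genes 9 were negative and 1 positive (median −0.41), and 7 of these 10 were saturations. The share called was 58.8%, against 23.7% of all genes. ADE1 (−1.22) and MTD1 (−0.94) rose most in the bmh mutant, and IMD2 was the synergy described above. The negative count ranged from 7 to 12 over left-out arrays. ADE2, a marker gene in this pathway, changed by 1.52, −0.29 and 0.52, an interaction of −0.71, and its part was not tested. The other marker genes with called interactions were LYS2 (−0.47), CAN1 (−0.46) and HIS3 (−0.35), which rose by 4.58 in the bmh mutant and by 4.73 in the combined mutant; URA3 was at −0.05. The call for CAN1 ended without 7 of the 12 arrays, with adjusted p up to 0.088.

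Where the separate mutations lowered a gene, saturation left the combined mutant above the additive expectation. FET3, the iron oxidase of high-affinity uptake, measured 12.31, 11.74 and 11.60 on wild-type arrays, 8.73, 8.48 and 8.36 on bmh arrays, 9.88, 9.58 and 9.37 on hdac arrays and 8.98, 9.39 and 9.28 on combined arrays. The combined arrays lay above the bmh arrays and overlapped the hdac arrays. Its interaction was 2.97 ± 0.26 (adjusted p = 6.7e-06). FRE4 (2.84), a ferric reductase, and FTR1 (1.93), the iron permease that works with FET3, fell in all 3 mutants as well, and SIT1 (1.32), a siderophore transporter, was an attenuation.

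Of 21 iron uptake genes 11 were positive and 0 negative (median 0.65), 6 of them saturations. The share called was 52.4%, against 23.7% of all genes. On wild-type array 1 this list stood 0.33 above the other wild-type arrays, and over left-out arrays the positive count ranged from 8 to 12 and the median from 0.39 to 0.76. PTR2, the peptide transporter, fell by 3.97 for bmh, 0.48 for hdac and 1.84 in the combined one, an interaction of 2.61 ± 0.22. DIC1 (1.97), a mitochondrial dicarboxylate carrier, completed the 8 strongest with ATO3 and BAT2. Of the 318 saturation genes, the combined change was smaller than the larger single change in 207, not smaller in 101 and of the other sign in 10.

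Some saturated genes still rose furthest in the combined mutant. PIR3, a cell wall protein, measured 10.01, 9.83 and 9.83 on bmh arrays, 10.42, 10.27 and 10.32 on hdac arrays and 12.25, 12.30 and 12.35 on combined arrays, from 6.25, 5.62 and 5.19 on wild-type arrays. SNO1 (−2.32), a vitamin B6 synthesis gene, and HPF1 (−1.92), a mannoprotein, had the same order. On linear signals these 3 genes turned positive, and they are among 18 of the 170 negative saturations that did so. A sum of log2 changes and a sum of signals set different expectations. The partner of SNO1, SNZ1, stood at −1.47. Of 22 cell wall genes 5 were negative and 1, TIP1 (1.03), was positive, 27.3% called against 23.7% of all genes, and CWP1 stood at −1.14.

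Attenuation covered 371 genes. Where the single change was that of the bmh mutant, the combined change was smaller in 90 genes and called the other way in 48. Where it was that of the hdac mutant, the numbers were 186 and 47. Chromosome III held 38 of the 186 and 31 of the 47, which left 148 and 16 on other chromosomes. For the bmh mutant 90 and 47 lay outside chromosome III. SPL2, an inhibitor of low-affinity phosphate transport, measured 7.95, 7.36 and 7.76 on bmh arrays, 9.94, 10.11 and 10.15 on combined arrays and between 10.91 and 11.21 on the other 6 arrays. The bmh change of −3.26 was thus −1.12 without the deacetylases, an interaction of 2.14 ± 0.17. IME1, the inducer of meiosis, measured 5.55, 5.09 and 5.61 on bmh arrays, 7.54, 7.44 and 7.55 on combined arrays and between 6.18 and 6.58 on the others. It fell by 0.98 in the bmh mutant and rose by 1.12 in the combined mutant, an interaction of 2.11 ± 0.18, and the 3 levels did not overlap. ARO10 (1.90), a decarboxylase of aromatic amino acid breakdown, SPG1 (1.54), YLR154C-H (−1.75) from the ribosomal DNA repeats, and COS8 and BAP2 above were the rest of the 8 strongest.

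The strongest opposing genes, PHO5 and ARO9, were lower than the wild type with the bmh mutations and higher with the hdac deletions. PHO5, the secreted acid phosphatase, measured 11.54, 11.85 and 11.57 on wild-type arrays, 9.49, 8.86 and 9.01 on bmh arrays, 13.50, 13.41 and 13.48 on hdac arrays and 13.17, 13.31 and 13.28 on combined arrays. The bmh effect was −2.53 with the deacetylases and −0.21 without them (interaction 2.32 ± 0.19, adjusted p = 3.8e-06). ARO9, an aromatic aminotransferase, measured 7.89, 7.86 and 7.72 on bmh arrays, 10.42, 10.25 and 10.40 on hdac arrays and 10.65, 10.70 and 10.80 on combined arrays, against 10.09, 9.52 and 9.56 on wild-type arrays. Its combined arrays were the highest of all, and the interaction was 2.27 ± 0.18. FAT3 (1.98), a fatty acid uptake gene, and YDL218W (1.83) ended above the hdac mutant as well, and YAR068W (2.06) slightly below it. OSW2 (1.78), a spore wall gene, ran the other way in the single mutants (0.72 in bmh, −0.43 in hdac) and rose by 2.07 in the combined mutant.

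Of the 189 opposing genes, the combined change lay between the single ones in 70, beyond the hdac change in 109 and beyond the bmh change in 10. The negative ones included CHA1 (−2.16) and GIT1 (−2.08), both on chromosome III. CHA1, serine deaminase, measured 6.62, 6.57 and 6.60 on the combined arrays and between 8.11 and 9.75 on all others, which puts every combined array below every wild-type array. Of 16 phosphate starvation genes 5 were positive and 2 negative, 43.8% called against 23.7% of all genes. All of PHO5, SPL2 and PHO11 (1.34) had fallen most in the bmh mutant. The positive count was 8 without bmh array 1 and 5 to 7 without any other.

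Meiosis genes were positive more often than negative. Of 33 early meiosis genes 14 were positive and 1 negative (median 0.32), 45.5% called against 23.7% of all genes. The positive ones included MSH5 (1.90) and ZIP1 (1.30) of chromosome pairing and recombination, SAE3 (0.93) and IME1. SAE3 was at background in the wild type and the bmh mutant and at least 3.2-fold above it in the combined mutant. The positive count was 9 without hdac array 1 and 17 without wild-type array 1. Of 36 sporulation genes 10 were positive and 2 negative (median 0.16), 33.3% called against 23.7% of all genes. OSW2, CRR1 (1.00) and SPR1 (0.92) were among the positive ones, whose count ranged from 9 to 14 over left-out arrays. SPS4 is also counted as positive, but it was at background in the hdac and combined mutants, so the size and sign of its fitted interaction (1.25) depend on the floor. Of 17 glycogen and trehalose genes 6 were positive and 1 negative (median 0.27), 41.2% called against 23.7% of all genes. GPH1 (1.34), glycogen phosphorylase, GLG1 (0.74), which primes glycogen, GDB1 (0.68), the debranching enzyme, and PGM2 (0.66), phosphoglucomutase, led them. On wild-type array 1 this last list stood 0.46 above the other wild-type arrays, and its positive count ranged from 4 to 7 over left-out arrays.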

How the data were processed

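The data are log2 signals of 12 Affymetrix Yeast 2.0 arrays, 3 for each of 4 strains. Hot acid phenol extraction was used, per the labels, and 250 ng of RNA went into a 3' expression kit. Per the submitters' processing notes, the authors made the deposited log2 signals with RMA in the affy package. Package versions were not given in the sources used here. No log base is stated, and log2 was read from the values, which run from 3.39 to 14.87. RMA removes background and quantile normalizes, and it compresses differences near the bottom of the scale. No read depth applies; the 3 arrays per strain limit the precision.

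GEO's platform annotation names 1 gene for 5497 of the 5715 probe sets, several for 0 and no gene for 218, and 12 symbols were updated through the RefSeq R64 gene table. The probe set with the highest mean was kept where a gene had several, which dropped 49 and left 5448 genes. Of these, 100 are read by probe sets marked as shared between transcripts and 18 by probe sets marked as able to cross-hybridize, so near-identical copies are uncertain.

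A model of the 4 group means was fitted with limma 3.58.1 (R 4.3.3, statmod 1.5.0) with empirical Bayes variances (degrees of freedom: 8 residual, 3.82 prior). P-values were adjusted over all genes by Benjamini-Hochberg. The interaction and the 5 changes come from this fit, which treats cultures as independent, and the call threshold is an adjusted p of 0.05. The fit pools the variance of a gene over the 4 groups, although the median SD was 0.135 in the wild type and 0.0654 to 0.0681 in the mutants. Standard errors may therefore be too small for changes against the wild type and too large for changes between mutants, and the calls carry this. Errors are standard errors of the fit unless stated, intervals are 95%, and the script was tested on simulated data. Background is the highest of 18 values of deleted genes where the strain lacks the gene (these run upward from 3.68, with a median of 3.82), and 57 genes were at or below it in all groups. "At least" folds set the bright group's mean against the dim group's arrays, each raised to that background.

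Named genes are the mutated genes, every Adr1-dependent gene, up to 8 per class by absolute interaction among those that kept sign and call with each array left out (both signs separately for synergy and saturation), up to 4 called members per list, and the mating-type lists in full. The members and the 38 lists were chosen with earlier results of these data known. Alternatives were other normalizations, filters on dim and shared probe sets, all probe sets, other variance models, array weights, thresholds, a replicate block and each array left out. Leaving out chromosome III and a block on the bmh and combined arrays alone were chosen after seeing the data. A planned count of promoter motifs was not run, as no sequences were used here.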

Additional observations from a re-analysis of the deposited data

Results flagged for a closer look

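The deacetylase effect differed between the 14-3-3 backgrounds for 1289 genes, which is the number of called interactions. In 131 of the genes outside the mating, marker and mutated genes both deacetylase effects were called with opposite signs, and in 142 both 14-3-3 effects were. The median interaction on chromosome III was −0.85, and the interaction of MF(ALPHA)1 was −7.90. In both, the hdac arrays stood apart from the other 9. Of the 218 probe sets without a gene symbol, which entered none of the comparisons, 56 (25.7%) had a called interaction, 24 positive and 32 negative.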

How the results depend on the processing

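The number of called interactions was within 1.5 times of 1289 under quantile normalization (1334), trend and robust variances (1302), filters on dim or shared probe sets, all probe sets, and median centring (614 positive and 676 negative, against 671 and 618). Without chromosome III the same fit held 1164 calls. That count only drops the calls on this chromosome, so its closeness to 1289 was fixed in advance and checks nothing. Array weights, which gave wild-type array 1 a weight of 0.0863, raised the number of calls to 2233 (1096 positive, 1137 negative), with 544 synergy, 702 saturation, 582 attenuation and 342 opposing genes. At an adjusted p of 0.01 there were 738 (375 and 363), with 218, 168, 236 and 78 in the same order. When the interaction and each change had to be at least 1 to count, the classes held 60, 36, 53 and 9. Separate changes under 1 then no longer counted, so genes could move between classes and these are not subsets. With 1 array left out the calls ranged from 1051 to 1962, positive from 547 to 972, negative from 492 to 990, synergy from 283 to 482, saturation from 248 to 643, attenuation from 300 to 510 and opposing from 144 to 273. The values 1962, 990 and 643 were those without wild-type array 1. Why these counts moved was not tested.

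Same-numbered bmh and combined arrays had r of 0.100 to 0.135 between their deviations, and differently numbered ones −0.106 to −0.0306. Differently numbered arrays of the wild type and the combined mutant reached 0.192, so values of this size also arise without a shared number. In the other pairs of groups same-number r lay between −0.176 and 0.0972, so the numbers do not pair the 4 groups. With the replicate block there were 1174 calls (609 positive and 565 negative), with 340, 293, 335 and 160 by class, and with a block on the bmh and combined arrays alone 1121. The sign turned for URA3 with array weights (0.0211) and without hdac array 2, with values from −0.147 to 0.0703 over left-out arrays. It turned for ICL2 without wild-type array 1, with values from −0.0327 to 0.0927, and neither gene was called. On linear signals, without a test, it turned for SNO1 (378 signal units), PIR3 (2860), HPF1 (4380), YAR068W (−4.5) and HIS3 (360). Over these alternatives, 2194 values kept direction and call, 12 lost the call, 2 gained it and 8 turned. For linear signals and the chromosome III median, which was counted too, only direction was compared. Genes named only as list members were not in this tally. Genes named by class had been picked for keeping sign and call with each array left out, so their agreement in those fits was fixed in advance.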

Other observations

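Sulfur and methionine genes were more often positive than negative, 8 and 2 of 24 (median 0.52), 41.7% called against 23.7% of all genes. MET14 (1.38), MET3 (1.28) and MET5 (0.91) of sulfate assimilation and MMP1 (1.21), a permease, were positive. On wild-type array 1 this list stood 0.61 above the other wild-type arrays, the positive count ranged from 7 to 12 over left-out arrays, and the median was 0.26 without that array. Respiratory chain and ATP synthase genes were negative where called, 11 of 34 (32.4% against 23.7% of all genes, median −0.27). Among them were CYC7 (−1.19) and CYC1 (−0.65), both cytochrome c, QCR10 (−0.59) and ATP20 (−0.54). Their count was 28 without wild-type array 1. Of 16 TCA cycle genes 4 were positive and 3 negative, 43.8% called against 23.7% of all genes. IDH2 (−1.54), IDH1 (−1.31), ACO1 (−0.92) and CIT3 (1.12) were among them, and the counts were 4 and 7 without wild-type array 1. Of 30 Msn2/4 stress genes 9 were positive and 3 negative, 40% called against 23.7% of all genes. RTN2 (2.04), HXK1 (1.41), YRO2 (−1.63) and YGP1 (−1.35) were among them, and the counts were 9 and 9 without that array. Of 18 Hsf1 chaperone genes 4 were positive and 1 negative, 27.8% called against 23.7% of all genes. The positive calls were HSP82 (1.40), SIS1 (0.69), MDJ1 (0.62) and STI1 (0.49), and the counts were 8 and 5 without wild-type array 1. The largest estimate of the list, 1.51, was not called.

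Of 25 nitrogen catabolite repression genes 3 were positive and 6 negative, 36% called against 23.7% of all genes. CAR2 (1.49), PUT1 (1.17), GDH2 (0.85) and MEP2 (−1.18) were among them, and the counts were 5 and 5 without wild-type array 3. Of 14 NAD synthesis genes 4 were positive and 1 negative, 35.7% called against 23.7% of all genes. BNA2 (0.86), NMA2 (0.65), NMA1 (0.58) and BNA4 (−0.86) were among them, and from 3 to 6 were positive over left-out arrays. Of 15 thiamine and vitamin B6 genes 3 were positive and 3 negative, 40% called against 23.7% of all genes. THI20 (1.29) and THI7 (1.05) were positive, and the counts were 5 and 2 without wild-type array 3. Of 14 inositol-regulated genes 1 was positive and 2 negative, 21.4% called against 23.7% of all genes (OPI3 −0.71, CKI1 −0.48, EPT1 0.34), with 3 and 4 without wild-type array 1 and 1 and 5 without array 2. Of 23 ergosterol genes 3 were positive and 2 negative, 21.7% called (ERG4 0.47, ERG5 0.41, ERG3 0.36, ERG26 −0.34), and 8 and 6 without wild-type array 1. Seripauperin and mannoprotein genes had 5 of 19 positive and 0 negative, 26.3% called against 23.7% of all genes (TIR1 1.08, PAU4 0.94, PAU21 0.69, PAU2 0.66). The positive count ranged from 1 to 11 over left-out arrays, and near-identical copies of these genes are uncertain. Of 7 flocculin genes 1 was positive and 0 negative, 14.3% called, and 2 and 1 without wild-type array 1. The largest interaction of this list, 1.19, is that of a gene also counted among the pheromone response genes, which were kept apart above.

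Beside 23.7% of all genes, interactions were called for few ribosome genes, ribosomal proteins at 0.82% and ribosome biogenesis genes at 6.25%. Among 122 ribosomal protein genes 1 was positive, RPS14B (0.99), and none was negative, with 2 negative without wild-type array 1. Of 48 ribosome biogenesis genes 3 were negative, KRR1 (−1.13) and PWP2 (−0.99) on chromosome III and NOP1 (−0.34), and without wild-type array 1 there were 3 positive and 3 negative. None of 10 histone genes was called by limma, and 1 had an unadjusted p under 0.05. Of 28 genes of deacetylase complexes (21.4% called) 1 was positive, UME6 (0.87), and 5 negative, with SNT1 (−0.94, on chromosome III), SIR3 (−0.50) and DEP1 (−0.48), and 4 and 6 without wild-type array 1. Of 25 coactivator genes (4% called) 1 was negative, SNF11 (−0.53), with 1 positive and 3 negative without wild-type array 1. The negative count was 2 without wild-type array 3, bmh array 3, hdac array 1 or combined array 2.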
